A study of Mus musculus with 4 samples.

Results

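Toll-like receptors and the NOD receptors are the innate sensors by which a cell detects microbial products, and they pass the signal to a small set of adaptor proteins. The genes described here are Tlr1 to Tlr6, the adaptor genes Myd88 and Ticam1, and Nod1 and Nod2, chosen by name as 10 genes. Their members on the array are the probe sets that the platform annotation pairs with exactly 1 of these symbols, which gave 13 probe sets for 9 genes, out of 45037 probe sets and 18193 singly named genes in all. Nod2 is not analysed here.

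The samples were 4 cultured lines of mesenchymal stem cells (MSC) from C57BL/6 mice, plastic-adherent stromal cells grown without any stated treatment in the same low-glucose medium with serum. The bone marrow group held 2 lines and the colonic group 2 lines, the latter from flushed colon. Each line was profiled on 1 Affymetrix mouse expression array after amplification of its total RNA. The titles call the lines of a tissue biological replicates, but the age, sex and number of the source mice are not stated. The p-values thus set a tissue difference against the spread between these lines alone, estimated in part from the other probe sets.

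Each Toll-like receptor has an outer ligand-binding part and an inner TIR domain that recruits adaptors. Tlr2 pairs with Tlr1 or Tlr6 to sense bacterial lipoproteins, Tlr4 senses lipopolysaccharide with the help of Cd14 and Ly96, Tlr5 senses flagellin and Tlr3 double-stranded RNA. Myd88 serves all of these receptors except Tlr3, which signals through Ticam1 (also called TRIF), and Tlr4 uses both. Nod1 is a cytosolic sensor of peptidoglycan fragments that works without either adaptor. The routes meet at NF-kappaB and the interferon regulatory factors, and MSC are known to respond to several of these ligands in culture.

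Promoter sequence from RefSeq (build GRCm38.p6) is shown for the 3 members whose values varied most, Tlr2 between the tissues and Tlr1 and Tlr5 between lines of the same tissue. RefSeq windows were found for 9 of the 10 genes, Tlr4 being the one without. The Tlr2 stretch of 30 bases, chr3:83841762-83841791 on the minus strand, is centred on letters of the NF-kappaB type in capitals, which lie 173 to 163 bases before this start and inside the longest annotated span of the gene. For Tlr1 (chr5:64933601-64933808, minus strand) and Tlr5 (chr1:182954538-182954751, plus strand) the sequence runs from 250 bases before the start to the edge of the annotated gene, and capitals mark any match to the motifs searched.
Tlr2: taggacacctGGGGAATTCCCacacggagc
Tlr1: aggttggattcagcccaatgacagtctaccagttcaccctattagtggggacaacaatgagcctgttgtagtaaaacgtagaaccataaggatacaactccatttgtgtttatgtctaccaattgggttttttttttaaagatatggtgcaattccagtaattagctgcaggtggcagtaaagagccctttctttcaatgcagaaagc
Tlr5: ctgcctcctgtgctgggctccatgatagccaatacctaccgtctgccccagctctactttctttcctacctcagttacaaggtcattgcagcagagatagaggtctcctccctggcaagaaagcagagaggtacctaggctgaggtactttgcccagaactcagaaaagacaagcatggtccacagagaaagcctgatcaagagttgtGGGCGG

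The motifs were searched on both strands in the 250 bases before each start. They were GGG, any 5 bases and CC (the NF-kappaB type), TGANTCA (AP-1), GAGGAA (the PU.1 type of ETS site), GGGCGG (the SP1 box, which can overlap the first) and GAAA, any 2 bases and GAAA (the interferon response type). Of 32851 RefSeq windows, 45.8% held the first, 6.75% the second, 23.3% the third, 32.7% the fourth and 2.98% the fifth. Tlr2 held 2 overlapping NF-kappaB matches and 2 SP1 boxes. Tlr5 held 1 NF-kappaB match, 20 bases before the start, and 2 SP1 boxes. The more distal Tlr1 window held 1 PU.1 match, 23 bases before the start. Myd88 held 1 SP1 box and 1 match of the interferon response type, 55 and 40 bases before its start. Windows of Nod1, Nod2, Ticam1, Tlr3 and Tlr6 also held NF-kappaB matches, so these letters were not particular to Tlr2 and Tlr5. SP1 boxes were also found for Nod1, Nod2 and Ticam1, and a PU.1 match for Ticam1. In 1 window of Tlr6 there were 2 matches of the interferon response type. A match is a description of letters and not a site.

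The arrays were alike in scale, with median intensities between 53.6 and 55.5. Of the mesenchymal markers, Pdgfrb, a growth factor receptor of mesenchymal cells, and Col1a1, a collagen chain, lay at 1189 or above in all of their probe sets and on every array. Others varied: the brightest probe set of Pdgfra lay between 1609 and 2493 in bone marrow and between 492 and 743 in colon, and Lum, a matrix proteoglycan gene, was at 9.77 and 6.07 against 107 and 181. The brightest probe sets of Alcam and Nt5e, surface markers of MSC, were at 37.0 in colonic replicate 2 and at 27.9 and 27.6 in the replicate 2 lines of bone marrow and colon. Of 17 macrophage and monocyte markers 9 stayed below 50 on all 4 arrays. Among them were the defining genes Ptprc (at most 28.6), Adgre1 (at most 32.1) and Tyrobp (at most 2.15). A further defining gene, Csf1r, did not, and lay between 56.9 and 324 over its 3 probe sets. Lyz2 reached 1589, Cd53 1333 and Fcer1g 640. The endothelial marker Pecam1 (at most 2.48), the epithelial marker Epcam (at most 19.6) and the lymphoid markers Cd3e (at most 12.2) and Cd79a (at most 17.5) were near the floor on all 4 arrays. By the brightest probe set of each gene, 7 of 7 lymphoid, 7 of 8 neutrophil and mast cell, 4 of 7 dendritic cell, 5 of 7 endothelial and 6 of 9 intestinal epithelial markers stayed below 50 on every array, the brightest of these lists being the keratin gene Krt20 with 889 in colonic replicate 1.

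Tlr2 had the largest tissue difference of the members. Its intensity was 459 and 326 in bone marrow replicates 1 and 2, and 87.5 and 37.0 in colonic replicates 1 and 2. Both bone marrow lines were high and both colonic lines low, with no overlap, and the closest arrays of the tissues were 3.73-fold apart. The bone marrow mean of 393 ± 94.3 (SD, n = 2) was 6.31 times the colonic mean of 62.3 ± 35.7 (SD, n = 2). In these bulk cultures, fewer cells expressing a gene and less RNA of it per cell cannot be told apart. On the scale log2(intensity + 13.6), on which a difference understates the ratio for dim probe sets, colonic minus bone marrow was -2.49 ± 0.46 (SE, 95% interval -3.68 to -1.29). With limma's moderated test the unadjusted p was 0.00346 and the p adjusted over all 27022 probe sets above the filter was 0.378, so Tlr2 did not pass the threshold of 0.05.

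**Figure D1:**
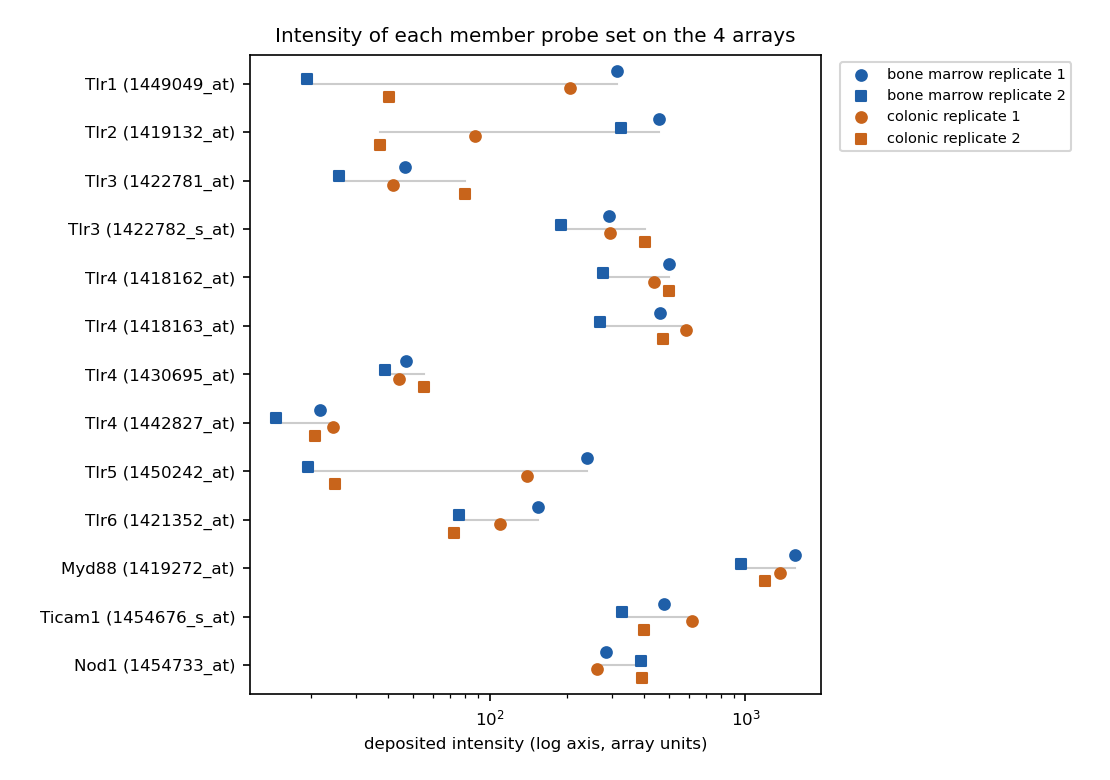
Deposited intensity (log axis, array units) of the 13 probe sets of the 9 measured genes, with bone marrow lines in blue, colonic lines in orange, replicate 1 as circles and replicate 2 as squares, and a grey line from the lowest to the highest array. Tlr2 has both blue points (326 and 459) to the right of both orange points (37.0 and 87.5), while Tlr1 and Tlr5 have the circles of both tissues to the right of both squares.

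Over the whole table, limma called 0 of 27022 probe sets at an adjusted p below 0.05 (0% of those tested), and 1520 (5.63%) had an unadjusted p below 0.05. Among the members, 12 of 13 probe sets were above the filter, a mean intensity of 33.3, and 0 of these 12 passed. At an unadjusted p below 0.05 was 1 of the 12, Tlr2. The tissues did not overlap in 1 member probe set lower in colonic MSC, again Tlr2, against 15.8% of all probe sets, and in 2 higher in colonic MSC, 1 of Tlr3 and 1 of Tlr4, against 16.9%. A mean difference of at least 1 on the log2 scale was seen toward bone marrow in 1 of the 13, against 1.91% of all probe sets, and toward colon in 0, against 2.98%. The median difference of the 13 was 0.16 on that scale and that of all probe sets 0.00048, with 9 of the 13 above 0 against 50.1% of all. Those above 0 included all 4 probe sets of Tlr4 and both of Tlr3, which are not independent, so this count does not show a lean of the genes.

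The macrophage marker list, summed over the brightest probe set of each gene, was at 2918 and 704 in the bone marrow lines, and 1130 and 2625 in the colonic lines, so that the tissues overlapped. Different genes led these sums. Lyz2, the lysozyme gene of myeloid cells, was at 1589, 31.7, 150 and 590 in the order bone marrow replicates 1 and 2 and colonic replicates 1 and 2. Fcer1g, an Fc receptor subunit gene, was at 640, 59.0, 43.2 and 59.6 in that order. Cd53, a tetraspanin gene of white blood cells, was at 14.0, 15.7, 155 and 1333, higher in both colonic lines. The part of such cells in the Tlr2 values was not tested.

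The partner genes of Tlr2 differed more between lines of a tissue than between tissues. Tlr1, the co-receptor for triacylated lipoproteins, was at 313 and 19.2 in the bone marrow lines, and 205 and 40.1 in the colonic lines. In each tissue replicate 1 was the high line, and the tissues overlapped fully. The lines were 16.3-fold apart in bone marrow and 5.11-fold apart in colon. The tissue difference was 0.066 ± 1.29 (SE, log2 scale), and its 95% interval of -3.33 to 3.46 spans large differences in either direction.

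Tlr6, the co-receptor for diacylated lipoproteins and the chromosomal neighbour of Tlr1, was at 155 and 75.6 in the bone marrow lines, and 110 and 72.2 in the colonic lines. Replicate 1 was again the higher line in both tissues, but by 2.04-fold in bone marrow and 1.52-fold in colon, far less than for Tlr1. The tissue difference was -0.25 ± 0.43 (SE, log2 scale, 95% interval -1.39 to 0.88). Thus Tlr2 was low in both colonic lines while its 2 co-receptor genes were each highest in a bone marrow line and next highest in a colonic line.

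Tlr5, the flagellin receptor, had the same order of arrays as Tlr1. Its intensity was 240 and 19.3 in the bone marrow lines, and 139 and 24.7 in the colonic lines. Replicate 1 was 12.4-fold above replicate 2 in bone marrow and 5.63-fold in colon. The tissue difference of -0.26 ± 1.19 (SE, log2 scale, 95% interval -3.37 to 2.86) was smaller than the spread between lines. Lines at least 4-fold apart in both tissues were found in 2 of the 13 member probe sets, those of Tlr1 and Tlr5, against 1.29% of all probe sets, a description chosen after the values were seen. No label ties the lines of the same number to one another. The macrophage markers went in different directions between the lines. Csf1r was at 266 and 148 in its brightest probe set in bone marrow, with 324 and 244 in colon. Cd68 was at 57.8 and 28.9, with 74.0 and 55.8. Replicate 1 was thus the higher line of both tissues for these genes, by at most 2.00-fold. Replicate 2 was the higher line of both tissues for Spi1 (62.4 and 70.7, with 57.3 and 67.5). The same held for the brightest probe sets of Laptm5 (74.9 and 80.5, with 83.6 and 91.4) and Cd53. Lyz2 and Fcer1g were higher in replicate 1 of bone marrow and in replicate 2 of colon. The part of such cells in the Tlr1 and Tlr5 values was not tested.

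**Figure D2:**
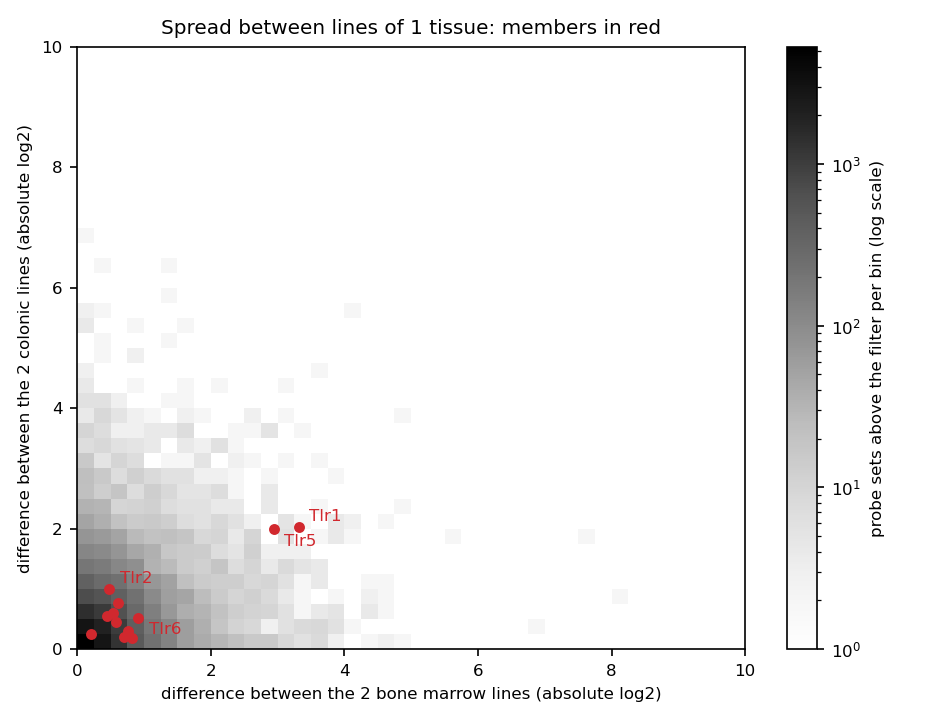
Absolute difference on the log2(intensity + pseudocount) scale between the 2 bone marrow lines (horizontal) and between the 2 colonic lines (vertical). The number of probe sets above the filter per bin is in grey (log scale), and the 12 member probe sets above the filter are in red. Tlr1 (3.32 and 2.02) and Tlr5 (2.95 and 2.00) lie apart from the other members, none of which exceeds 1.00 on either axis.

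Tlr4, the lipopolysaccharide receptor, was measured by 4 probe sets. In the first (1418162_at) bone marrow stood at 500 and 278 and colon at 437 and 501. In the second (1418163_at) bone marrow stood at 462 and 269 and colon at 587 and 474. Bone marrow replicate 2 was the lowest array in both, and the tissues overlapped in the first and were parted in the second by 1.03-fold between their closest arrays.

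The tissue differences of these Tlr4 probe sets were 0.31 ± 0.41 and 0.56 ± 0.40 (SE, log2 scale), with 95% intervals of -0.75 to 1.38 and -0.48 to 1.61. The third (1430695_at) ranged from 38.8 to 55.0 and differed by 0.16. The fourth (1442827_at) ranged from 14.5 to 24.4, lay below the filter and was not tested. All 4 had higher means in colonic MSC, and since they report the same gene they are not independent.

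Cd14 and Ly96, helpers of Tlr4, gave signals in all lines and are named here for their role and after their values were seen. Cd14, which hands lipopolysaccharide to the receptor, was at 810 and 735 in the bone marrow lines, and 963 and 573 in the colonic lines. Ly96, the MD-2 protein that binds it within the receptor complex, was at 384 and 248 in the bone marrow lines, and 362 and 331 in the colonic lines. The tissues overlapped in both genes, with log2 differences of -0.052 and 0.16. Lbp, a further accessory protein, was dimmer, between 10.9 and 71.1 over its 2 probe sets.

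Tlr3, the endosomal receptor for double-stranded RNA, was measured by 2 probe sets. The brighter one (1422782_s_at) was at 292 and 191 in the bone marrow lines, and 294 and 405 in the colonic lines. The dimmer one (1422781_at) was at 46.3 and 25.7 in the bone marrow lines, and 41.6 and 80.0 in the colonic lines. Bone marrow replicate 2 was lowest and colonic replicate 2 highest in both, which is not the order of Tlr1 and Tlr5. The tissues were 1.01-fold apart at their closest in the brighter probe set and overlapped in the dimmer one. The differences were 0.52 ± 0.38 and 0.57 ± 0.39 (SE, log2 scale), with limma adjusted p-values of 0.990 for both.

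Nod1, the cytosolic peptidoglycan sensor, was at 285 and 392 in the bone marrow lines, and 263 and 393 in the colonic lines. In each tissue replicate 2 was the higher line, by 1.37-fold and 1.49-fold. The tissue difference was -0.053 ± 0.38 (SE, log2 scale, 95% interval -1.04 to 0.94).

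The adaptors gave signals in all 4 lines. Myd88, the adaptor of most Toll-like receptors, was at 1569 and 963 in the bone marrow lines, and 1366 and 1194 in the colonic lines. Both colonic lines lay between the bone marrow lines. The means were 1266 ± 428 (SD, n = 2) and 1280 ± 122 (SD, n = 2), a difference of 0.054 ± 0.34 (SE, log2 scale, 95% interval -0.85 to 0.96).

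Ticam1, the adaptor of Tlr3 and of the second branch of Tlr4, was at 479 and 327 in the bone marrow lines, and 615 and 400 in the colonic lines. Replicate 1 was higher in both tissues, by 1.46-fold and 1.54-fold, and the tissues overlapped. The difference was 0.32 ± 0.40 (SE, log2 scale, 95% interval -0.73 to 1.36). Its probe set and the brighter one of Tlr3 carry a suffix by which the manufacturer marks probes that can match more than 1 transcript.

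**Figure D3:**
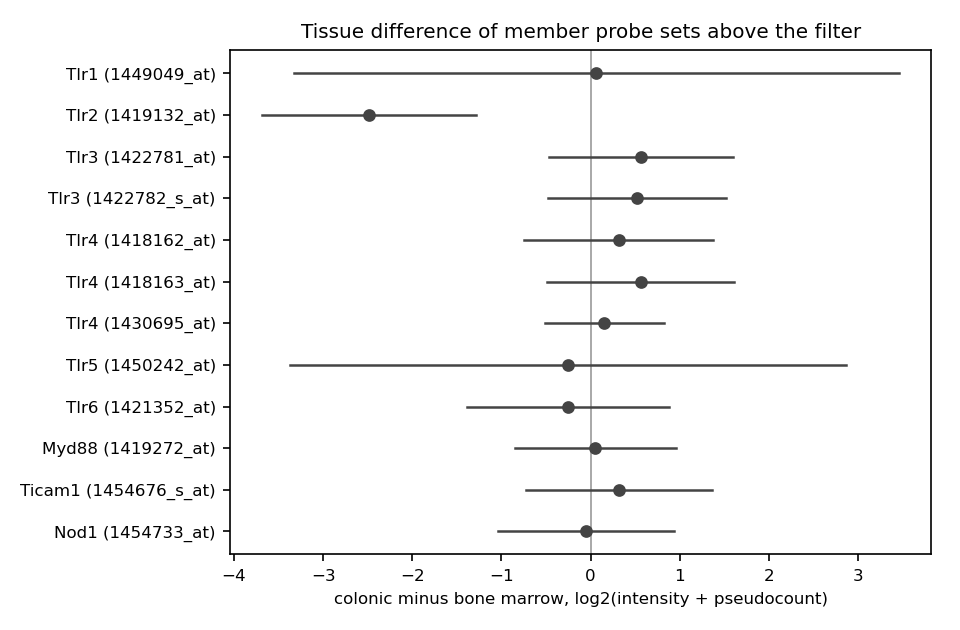
Colonic minus bone marrow difference on the log2(intensity + pseudocount) scale for the 12 member probe sets above the filter, with points for the limma estimate and bars for its 95% interval before any adjustment. The interval of Tlr2 (-3.68 to -1.29) is the one that leaves out 0, and those of Tlr1 and Tlr5 are the widest.

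Of the 13 member probe sets, 1 had a tissue difference larger than the differences between lines in both tissues, the probe set of Tlr2, against 20.9% of all probe sets. Tlr2 thus differed from the rest of the members in where its spread lay, and this comparison among members was not tested. The other receptors and both adaptors showed tissue differences of at most 0.57 on the log2 scale in either direction.

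The other genes of the pathway were grouped in 8 lists of 110 genes, of which 94 had a probe set. With limma 0 of their 118 probe sets above the filter passed at an adjusted p below 0.05, and their tissues did not overlap in 34 of 175 probe sets higher and 33 lower in colonic MSC, against 16.9% and 15.8% of all probe sets. The genes named below are up to 4 a list, taken by lowest unadjusted p, and 0 of them passed.

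Of the other Toll-like receptors, 4 of 5 genes with a probe set stayed below 50 on all 4 arrays. Tlr7, Tlr8, Tlr12 and Tlr13 had no value above 20.7 in any of their probe sets, and Tlr9, a receptor for unmethylated DNA, lay between 56.5 and 70.1. Among the co-receptors and accessory proteins, 0 of 10 probe sets above the filter had a limma unadjusted p below 0.05, against 5.63% of all. The lowest p there belonged to Cd180 (-0.39 ± 0.26, SE, log2 scale), Unc93b1, the transporter of endosomal receptors (-1.13), Slc15a2 (-0.28) and Hsp90b1 (-0.20). In their other probe sets Slc15a2 differed by 0.35 and -0.26, and Hsp90b1 by -0.067. Unc93b1 was at 185 and 110 in the bone marrow lines, and 185 and 12.2 in the colonic lines, so colonic replicate 2 carried its difference, which was 0.34 without that line. Of the other adaptors, Tirap, which bridges Tlr2 and Tlr4 to Myd88, was at 648 and 632 in the bone marrow lines, and 743 and 801 in the colonic lines in 1 of its probe sets. Its log2 difference was 0.26 there and 0.20 in the other. The adaptor gene Sarm1 differed by 0.41 in its probe set above the filter, but by -0.23 and -0.13 in those below it. Pik3ap1 differed by -0.059 above the filter and by -0.13 below it.

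Among the kinases and ubiquitin ligases next to the adaptors, 4 of 27 probe sets above the filter had a limma unadjusted p below 0.05, 2 in each direction. The share over all probe sets above the filter was 5.63%. The kinase gene Map3k7 (TAK1) did not overlap in 4 of its 6 probe sets, all higher in colonic MSC, against 16.9% of all probe sets. Its log2 differences reached up to 0.81. Its partner Tab2 was lower in colonic MSC without overlap in both of its probe sets (-0.50 and -0.94), against 15.8% of all probe sets. Irak2, a kinase of the Myd88 complex, was at 1760 and 1059 in the bone marrow lines, and 2297 and 2798 in the colonic lines (0.89 ± 0.33, SE, log2 scale). Tab1 differed by -0.47, with 0.094 in its probe set below the filter. Of the NF-kappaB and interferon regulatory factors, 1 of 20 probe sets above the filter had a limma unadjusted p below 0.05, against 5.63% of all. This was Irf7, the factor of the interferon branch, at 65.6 and 58.2 in the bone marrow lines, and 236 and 291 in the colonic lines (1.87 ± 0.29, SE, log2 scale, limma adjusted p = 0.261). Ikbkg differed by 0.90 in the probe set with the lowest p, and by between 0.33 and 0.90 over its 6 probe sets. The tissues did not overlap in 1 of these 6, against 16.9% of all probe sets higher in colonic MSC. Colonic replicate 2 was the highest array in each of them. The NF-kappaB subunit gene Rela differed by -0.26. Irf1 differed by -0.97, but its tissues overlapped, at 1871 and 1429 in the bone marrow lines, and 447 and 1534 in the colonic lines. With 1 array left out the Irf1 difference ranged from -1.84 to -0.091.

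The feedback inhibitors of the pathway had a median log2 difference of -0.33 over 29 probe sets, against 0.00048 for all probe sets. Without overlap, 12 of the 29 were lower in colonic MSC, against 15.8% of all probe sets, and 4 were higher, against 16.9%. The lower ones came from few genes: Nfkbia (5 probe sets), Erbin (3), Tnfaip3 (2) and Cyld (2). The higher ones were of Tollip (2), Nfkbib (1) and Socs1 (1). At a limma unadjusted p below 0.05 were 3 of 25 probe sets above the filter, all lower in colonic MSC, against 5.63% of all in either direction. Tnfaip3 (A20), an inhibitor of NF-kappaB, was at 1066 and 2271 in the bone marrow lines, and 561 and 302 in the colonic lines (-1.88 ± 0.53, SE, log2 scale, limma adjusted p = 0.713), with -0.35 in its other probe set. Nfkbia, which holds NF-kappaB in the cytosol, was lower without overlap in 5 of 5 probe sets, with log2 differences between -0.53 and -0.33. Erbin differed by -0.88 in its brightest probe set, and by between -1.11 and -0.74 over its 4 probe sets. Cyld, a deubiquitinase, differed by -0.78 in the probe set with the lowest p. It differed by -0.33 in its brightest probe set and by -0.16 and -0.012 in the others. These probe sets share genes and are not independent of one another.

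Of the other NOD-like receptors and inflammasome genes, 6 of 14 genes with a probe set stayed below 50 on all 4 arrays. Pycard, the inflammasome adaptor ASC, was at 13.0 and 19.8 in the bone marrow lines, and 56.2 and 45.7 in the colonic lines (1.11 ± 0.25, SE, log2 scale), but differed by -0.12 and -0.17 in its other probe sets. Nlrx1 differed by 1.11. Nlrc5 differed by -0.93, at 83.8 and 42.5 in the bone marrow lines, and 30.3 and 20.6 in the colonic lines. Casp1 differed by -0.52, at 31.8 and 61.6 in the bone marrow lines, and 28.0 and 26.4 in the colonic lines. The low intensities of Nlrc5 and Casp1 limit what can be measured for them. The inducible target genes went in both directions. Of 21 probe sets above the filter, 4 were higher and 2 lower in colonic MSC at a limma unadjusted p below 0.05. The share over all probe sets above the filter was 5.63% in either direction. The adhesion molecule gene Icam1 was at 10.2 and 14.2 in the bone marrow lines, and 104 and 40.6 in the colonic lines (1.64 ± 0.43, SE, log2 scale). The chemokine genes Ccl7 and Ccl2 differed by -2.40 and -1.80. The cyclooxygenase gene Ptgs2 differed by 2.30, with a limma adjusted p of 0.124, and by 3.46 in its other probe set.

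**Figure D4:**
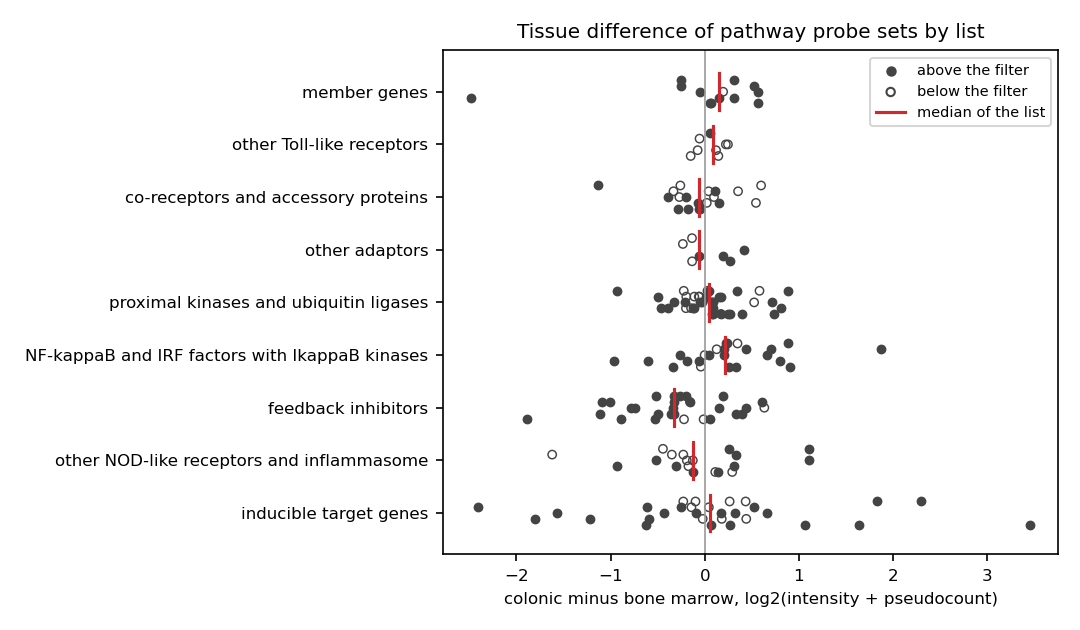
Colonic minus bone marrow difference on the log2(intensity + pseudocount) scale for every probe set of the member genes and of the 8 other lists of the pathway, with filled points above the filter, open points below it and a red line at the median of each list. The members cluster near 0 apart from Tlr2 at -2.49, and the feedback inhibitors have the lowest median (-0.33).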

How the data were processed

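The deposited values are linear intensities, 1 per probe set and array, judged from their decimals and range. How the authors summarised probes, corrected background and scaled arrays is not given in the sources used here. No detection call was used. The tested quantity was log2(intensity + 13.6), where 13.6 is 0.25 times the table median, and 64 array controls were left out. Symbols came from the platform annotation, with 34945 probe sets given 1 symbol, 932 several and 9160 none. Each probe set above the 40th percentile of mean intensity was tested with limma 3.58.1 in R 4.3.3 (lmFit, eBayes with trend, 2 residual degrees of freedom, a prior of 2.69), two-sided with Benjamini-Hochberg adjustment. An exact permutation test of these arrays cannot give a p below 0.333, so none was run. The number of arrays limits the precision. A filter passed through 1 tissue favours genes that differ.

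The members and lists were chosen with earlier results of these data known. Named pathway genes were up to 4 of each list by lowest p. Cd14, Ly96, Lbp, the marker genes other than the defining ones, Tlr7, Tlr8, Tlr12 and Tlr13 were named after their values were seen. The fit was tested on simulated data. Alternatives were other normalizations, pseudocounts, filters, probe set rules, eBayes settings, a replicate block, an adjusted p of 0.1 as threshold, and leaving out single arrays.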

Additional observations from a re-analysis of the deposited data

How the results depend on the processing

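The count of 0 member probe sets past the threshold was 0 under every alternative run. Over the whole table the count of 0 became 12 with a filter at the 60th percentile and 54 at an adjusted p of 0.1, and ranged from 0 to 98 with 1 array left out, being 72 without colonic replicate 1 and 98 without colonic replicate 2. The smallest adjusted p over all probe sets was 0.0608. Tlr2 kept its direction throughout, from -2.98 to -1.99 with 1 array left out and from -2.74 to -1.96 under the other alternatives, with limma adjusted p-values from 0.162 to 0.856. Tlr1 turned to -0.071 with a pseudocount of the table median. With 1 array left out the sign turned within these ranges: Tlr1 -1.59 to 1.72, Tlr5 -1.73 to 1.22, Tlr6 -0.71 to 0.20, Myd88 -0.29 to 0.40, Nod1 -0.33 to 0.22, Tlr4 (1418162_at) -0.093 to 0.72, Tlr9 -0.075 to 0.18, Hsp90b1 -0.50 to 0.10 and Unc93b1 -2.60 to 0.34. The cause was not tested. Those fits assume that a lone line varies as much as the lines of the other tissue. The labels share replicate numbers across tissues but do not pair the lines, and the deviations of same-numbered lines correlated with r = 0.139 over probe sets. With the replicate number as a block 0 probe sets passed, and Tlr2 had a limma adjusted p of 0.278. Low intensities, as in the dimmer probe sets of Tlr3 and Tlr4, limit what can be measured for them.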
